A study of Mus musculus with 12 samples.

Results

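RAW264.7 cells that received RANKL together with culture supernatant of the bacterium Lactobacillus reuteri were compared between day 5 and day 1. The samples were chosen by their titles: 2 libraries of treatment day 1 and 2 of treatment day 5, 4 of the 12 libraries of the series. RAW264.7 is an immortalized monocyte/macrophage line of Balb/c mouse origin, and RANKL, the ligand of the receptor RANK, was added to the cells of every group, the vehicle group included. The vehicle was MEM-alpha medium, and RNA was taken at days 1, 3 and 5 in both arms, with 2 libraries per arm and day. No group went without RANKL, so a change between days is the change of a stimulated culture with time, and the vehicle libraries of the same days serve to ask which changes differed under the supernatant. All libraries come from 1 cell line, and nothing in the labels says that same-group libraries were separate cultures, so the p-values reflect library-to-library spread that could be technical.

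RANKL binds RANK on myeloid precursors and signals through TRAF6 to NF-kB and AP-1, which induce NFATc1, the transcription factor that drives osteoclast genes. Cells that follow this path leave the cell cycle, fuse through proteins such as DC-STAMP and OC-STAMP, and secrete acid, cathepsin K and matrix metalloproteinases onto bone. Repressors such as IRF8 hold precursors in the macrophage state and are lowered in osteoclasts.

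The 4 libraries held 14789954 and 14856192 reads on genes at day 1 (replicates 1 and 2), and 13851331 and 10724569 at day 5. The day 5 libraries were of different kinds. In day 5 replicate 1, nuclear protein-coding genes took 87.6% of reads, as in the day 1 libraries (85.9% and 85.3%), while in day 5 replicate 2 the share was 48.8%. Mitochondrial genes took 5.11%, 5.97% and 3.64% of reads in the first 3 libraries and 25.8% in day 5 replicate 2, and the nuclear long noncoding RNA Malat1 took 0.218%, 0.277%, 0.336% and 8.15%. Each library was deposited on a scale with the same total, so the mRNAs of replicate 2 share a smaller part of it. Its values are therefore given on the deposited scale and again on an mRNA scale, on which libraries have equal sums over nuclear protein-coding genes. In bulk RNA of this kind, fewer cells of a type and less RNA per cell cannot be told apart.

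**Figure D1:**
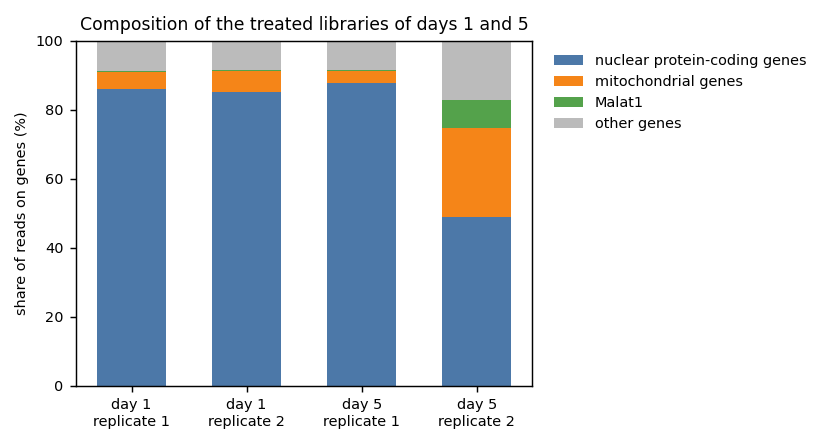
Share of reads on genes (y axis, percent) that fell on nuclear protein-coding genes, mitochondrial genes, Malat1 and other genes in the 4 treated libraries of days 1 and 5. Day 5 replicate 2 stands apart, with 48.8% nuclear protein-coding and 25.8% mitochondrial reads against 85.3% to 87.6% and 3.64% to 5.97% in the other 3 libraries.

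Of 14715 genes tested, a limma model with 1 mean per group over the 12 libraries called 0 between day 5 and day 1 (0.0% of genes, 174 at an unadjusted p under 0.05, and 0 by limma-voom on recovered reads). Tested on simulated data with the composition of the low-mRNA libraries, that model recovered 0 of 100 genes changed by 1 log2 unit and 0 of 100 changed by 2, so its count says nothing about which genes were stable. Each day 5 library was therefore compared on its own with the mean of day 1. In that fit the spread comes from the day 1 libraries of both arms alone, with 2 residual degrees of freedom, and a lone day 5 library is assumed to vary as they did. Below, "rose" and "fell" mean a Benjamini-Hochberg adjusted p under 0.05 in it.

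In day 5 replicate 1, 1848 genes rose (12.6%) and 2616 fell (17.8%), with a median log2 difference over all genes of -0.05. In day 5 replicate 2, 2383 rose (16.2%) and 9584 fell (65.1%), with a median of -0.95, and on the mRNA scale 4929 rose (33.5%) and 6405 fell (43.5%), with a median of -0.15. Protein-coding genes made up 90.1% of the genes that rose in replicate 1 and 59.5% of those that rose in replicate 2 on the deposited scale, against 78.05% of all genes tested. The count for replicate 1 depended on the day 1 libraries: it was 668 without treatment day 1 replicate 1, 1091 without treatment day 1 replicate 2, and 1943 and 1942 without vehicle day 1 replicate 1 and 2. Both comparisons use the same day 1 libraries, so their values are given side by side and are not independent of each other. Counts of rises and falls in the gene lists below are to be read beside these shares of all genes. On the deposited scale of replicate 2 most genes fell, in a list or not.

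Markers were read first as a check of the cell type. The 26 macrophage identity genes summed to 282860 and 275720 normalized counts at day 1, 498020 in day 5 replicate 1 and 234390 in day 5 replicate 2, and of them only C1qa was at 0 in all 4 libraries. Lymphocyte markers summed to 2.58, 1.71, 10.1 and 8.30 in the same order, with Cd8a and Trac at 0 throughout, and none of them reached the filter on low values. The mast cell and erythroid markers summed to 6.87, 11.98, 17.4 and 11.9, and the gene of them that was tested, Alas2, did not pass in replicate 1 and rose in replicate 2. Fibroblast and osteoblast markers summed to 107, 88.1, 112 and 51.0, nearly all from Runx2, which did not pass in replicate 1 and fell in replicate 2 on the deposited scale. Neutrophil markers summed to 125, 129, 257 and 109, with Elane at 0 throughout, and of 3 tested genes Csf3r rose in replicate 1 while Cebpe fell in replicate 2 on the deposited scale only. Of the MHC class II and dendritic cell markers H2-Aa was at 0 throughout, and the list's sum of 3082, 2775, 4534 and 2454 was mostly Cd74. In that list 2 of 4 tested genes rose and 1 fell in replicate 1, and the same counts were found in replicate 2 on the deposited scale, where Cd74 fell (-0.36), while on the mRNA scale all 4 rose (0.45 for Cd74).

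Of the bone-resorbing machinery, Acp5, Ctsk and Mmp9 stood far higher in day 5 replicate 2 than in day 5 replicate 1. Acp5, the osteoclast enzyme TRAP, stood at 25.8 and 23.95 normalized counts at day 1, 21.1 in day 5 replicate 1 and 771 in day 5 replicate 2. It differed by -0.23 log2 units in replicate 1 (SE 0.30, limma adjusted p = 0.612) and rose by 4.90 in replicate 2 (adjusted p = 6.15e-05). Ctsk, the collagen-degrading protease cathepsin K, stood at 316 and 285 at day 1, 281 in replicate 1 and 7164 in replicate 2. In both genes replicate 1 lay beside the day 1 libraries and replicate 2 alone was high, by 4.57 log2 units for Ctsk (SE 0.08, limma adjusted p = 6.68e-06) against -0.10 in replicate 1 (adjusted p = 0.415).

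Mmp9, the gelatinase that osteoclasts secrete, rose in both libraries, from 194 and 174 normalized counts to 798 in replicate 1 and 4764 in replicate 2. Its log2 differences were 2.11 and 4.69 (SE 0.08 each, limma adjusted p = 0.00206 and 6.68e-06). Oscar, an immunoglobulin-like receptor that costimulates osteoclast formation, was at 0 in both day 1 libraries, at 0.92 in replicate 1 and at 27.3 in replicate 2, at least 10.6-fold higher than a floor of 3 reads in a day 1 library. Tcirg1, the osteoclast subunit of the proton pump, stood at 3393, 3119, 2833 and 7980 in the same order, and Src, the kinase of the ruffled border, at 216, 181, 217 and 417. Neither passed in replicate 1, and in replicate 2 they rose by 1.29 and 1.07 log2 units. Car2, the carbonic anhydrase that supplies protons, went the other way in both libraries: from 353 and 334 it fell to 131 and 149, by 1.38 and 1.20 log2 units (SE 0.12, limma adjusted p = 0.00396 and 0.000457), and by 0.39 in replicate 2 on the mRNA scale. The integrin gene Itgb3 was low in each library, at 6.02, 2.57, 24.8 and 17.8, and did not pass. Over the 20 tested effector genes 5 rose and 2 fell in replicate 1, against 12.6% and 17.8% of all genes, with a list median of 0.07. In replicate 2, 10 rose and 7 fell on the deposited scale (median 0.35) and 12 rose and 4 fell on the mRNA scale (median 1.16).

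Genes for the fusion of precursors separated the libraries further. Ocstamp stood at 131 and 121 normalized counts at day 1, 3.67 in day 5 replicate 1 and 212 in day 5 replicate 2, so replicate 1 was the lowest and replicate 2 the highest of the 4. It fell by 4.76 log2 units in replicate 1 (SE 0.14, limma adjusted p = 0.00193) and rose by 0.75 in replicate 2 (adjusted p = 0.00437). Dcstamp, its partner in fusion, stood at 1503 and 1460 at day 1, 799 in replicate 1 and 1689 in replicate 2. It fell by 0.89 in replicate 1, and in replicate 2 differed by 0.19 on the deposited scale (adjusted p = 0.100) and rose by 1.00 on the mRNA scale. Atp6v0d2, a V-ATPase subunit needed for fusion, rose in both, from 463 and 442 to 600 and 2504, by 0.41 and 2.47 log2 units. Of the 9 fusion genes 3 rose and 2 fell in replicate 1 (median 0.04), and 3 rose and 4 fell in replicate 2, or 6 and 3 on the mRNA scale.

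Nfatc1, Fos, Jdp2 and Myc, transcription factors of the pathway, fell in both day 5 libraries. Nfatc1 stood at 1355 and 1236 normalized counts at day 1 and at 648 and 505 at day 5, a fall of 1.00 log2 units in replicate 1 (SE 0.10, limma adjusted p = 0.00453) and of 1.36 in replicate 2 (0.55 on the mRNA scale). Fos, an AP-1 subunit, fell from 1350 and 1297 to 786 and 425, by 0.75 and 1.63. Jdp2, an AP-1 family member that acts in osteoclast formation, fell from 1716 and 1782 to 401 and 455. Myc, which drives growth and is induced by RANKL, fell from 2123 and 2072 to 443 and 281. For all 4 genes both day 5 libraries lay below both day 1 libraries, and each fell on the mRNA scale too. Prdm1, which encodes Blimp1, a silencer of the repressors of osteoclast formation, stood at 0 and 2.57 at day 1, 2.75 in replicate 1 and 58.1 in replicate 2, a rise of 4.97 log2 units in replicate 2 alone (SE 1.01, limma adjusted p = 0.00645). Over the 20 tested factors 4 rose and 8 fell in replicate 1, and 5 rose and 12 fell in replicate 2, or 9 and 8 on the mRNA scale. The list medians were -0.02, -0.74 and 0.07, beside -0.05, -0.95 and -0.15 over all genes.

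RANK itself was lower on day 5, while Fcer1g, Tyrobp and Trem2, of its costimulatory pathway, were higher. Tnfrsf11a, the RANK gene, stood at 1978 and 1917 normalized counts at day 1, 1119 in replicate 1 and 392 in replicate 2, a fall of 0.80 and of 2.31 log2 units (SE 0.08, limma adjusted p = 0.00443 and 1.04e-05), or of 1.50 in replicate 2 on the mRNA scale. Traf6, its adaptor, did not pass in replicate 1 (-0.10) and fell by 2.28 in replicate 2 and by 1.48 on the mRNA scale. Fcer1g and Tyrobp, which encode the ITAM adaptors FcRgamma and DAP12, rose from 2183 and 1917 to 3278 and 5430, and from 1898 and 1678 to 2827 and 4130. Trem2, a receptor that signals through DAP12, rose from 2103 and 1897 to 2650 and 4067, by 0.41 and 1.03 log2 units. In these 3 genes both day 5 libraries lay above both day 1 libraries on the deposited scale, on which most genes of replicate 2 were lower. The 15 receptor and adaptor genes had a median of 0.19 in replicate 1, beside -0.05 over all genes. In replicate 2 it was -1.20, or -0.39 on the mRNA scale, beside -0.95 and -0.15 over all genes.

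Repressors of osteoclast formation rose more often than they fell in replicate 1. Irf8 stood at 593 and 539 normalized counts at day 1, 1186 in replicate 1 and 609 in replicate 2: it rose by 1.07 log2 units in replicate 1, and in replicate 2 differed by 0.11 on the deposited scale (limma adjusted p = 0.614) and rose by 0.92 on the mRNA scale. Bcl6 did not pass in replicate 1 (-0.03) and fell by 0.87 in replicate 2 on the deposited scale only, with -0.06 on the mRNA scale and 0.16 after quantile normalization. Id2, an inhibitor of helix-loop-helix factors, rose by 1.47 in replicate 1 and did not pass in replicate 2, where it differed by -0.71 on the deposited scale and 0.09 on the mRNA scale. Counted over 12 tested repressors, 6 rose and 2 fell in replicate 1, beside 12.6% and 17.8% of all genes. In replicate 2, 1 rose and 9 fell, beside 16.2% and 65.1% of all genes, or 2 and 5 on the mRNA scale, beside 33.5% and 43.5%, so the falls lay near the background. The medians were 0.21, -1.06 and -0.25.

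**Figure D2:**
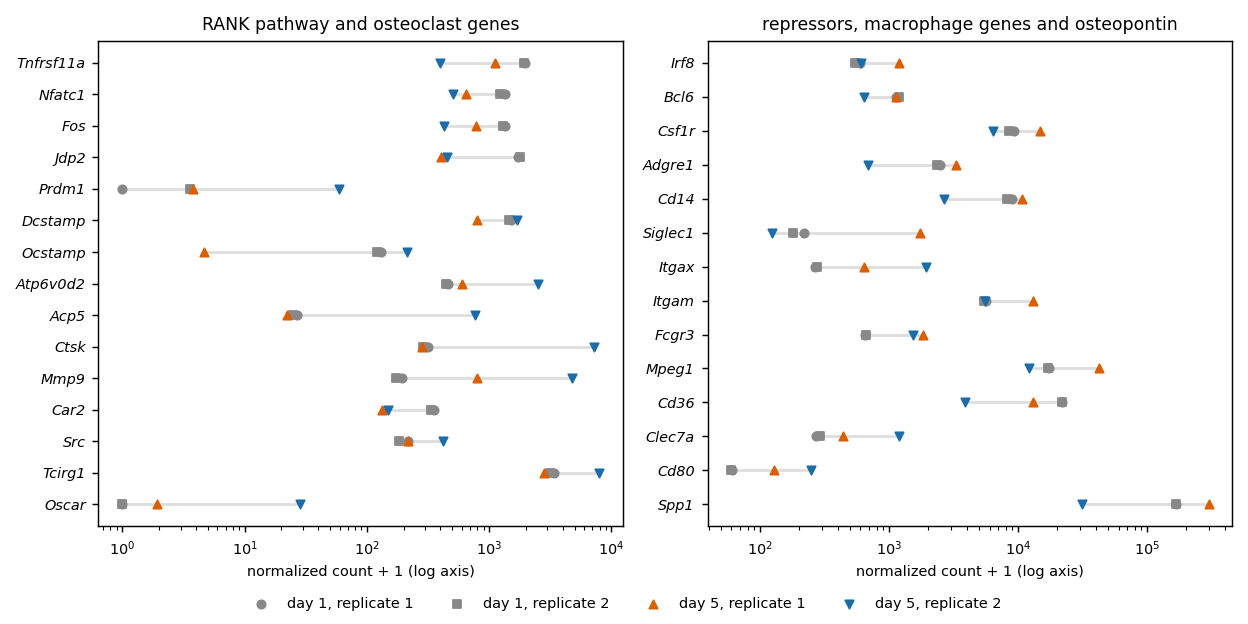
Normalized count plus 1 (x axis, log scale) of RANK pathway and osteoclast genes, and of repressors, macrophage genes and osteopontin, in the 2 treated libraries of day 1 (grey) and in day 5 replicate 1 (orange) and replicate 2 (blue). Acp5 and Ctsk are high in day 5 replicate 2 alone (771 and 7164), Mmp9 is high in both day 5 libraries (798 and 4764), and Siglec1 is high in day 5 replicate 1 alone (1735).

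Genes of macrophage identity were higher in day 5 replicate 1. Siglec1, the sialic acid receptor CD169, stood at 219 and 179 normalized counts at day 1, 1735 in replicate 1 and 123 in replicate 2, a rise of 3.13 log2 units in replicate 1 (SE 0.17, limma adjusted p = 0.00206). In replicate 2 it fell by 0.68 on the deposited scale and differed by 0.13 on the mRNA scale, without passing there. Mpeg1, the pore-forming perforin-2, rose from 17207 and 16960 to 42312 in replicate 1, and Itgam, which encodes CD11b, from 5666 and 5448 to 12903. In replicate 2 the values were 12064 and 5527: on the deposited scale Mpeg1 fell and Itgam did not pass, and on the mRNA scale both rose (0.31 and 0.80). Csf1r, the receptor for M-CSF, rose by 0.73 in replicate 1, and in replicate 2 fell by 0.49 on the deposited scale and rose by 0.32 on the mRNA scale.

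A few macrophage surface genes were higher in both libraries on either scale. Itgax, which encodes CD11c, rose from 264.67 and 272.9 to 633 and 1944, by 1.23 and 2.85 log2 units (SE 0.11, limma adjusted p = 0.00393 and 1.45e-05). Fcgr3, an activating Fc receptor, rose from 648 and 666 to 1828 and 1522, the costimulatory gene Cd80 from 60.2 and 59.0 to 127 and 248, and the beta-glucan receptor gene Clec7a from 271 and 293 to 437 and 1201. Others rose in replicate 1 and fell in replicate 2 on both scales, such as Adgre1, the F4/80 antigen (0.45, and -1.80 or -0.996). Cd14, the lipopolysaccharide co-receptor, differed by 0.33 in replicate 1 (adjusted p = 0.0949) and fell by 1.70 in replicate 2. The fatty acid scavenger receptor Cd36 fell in both, from 21879 and 21914 to 13060 and 3897. Among 22 tested identity genes 16 rose and 2 fell in replicate 1 (median 0.98), and 4 rose and 10 fell in replicate 2 (median -0.15), or 14 and 6 on the mRNA scale (median 0.66). The lysozyme genes on this list are close paralogs and may share reads.

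Cell cycle genes fell in both day 5 libraries, far more in replicate 2. Each of the 34 genes of mitosis and G2/M fell in replicate 1 and in replicate 2, on the deposited and on the mRNA scale, with list medians of -0.97, -3.95 and -3.14 beside -0.05, -0.95 and -0.15 over all genes. For 9 of the 34 both day 5 libraries lay at least 1 log2 unit below both day 1 libraries, against 1.43% of all genes. Ccnb1, the mitotic cyclin B1, stood at 1518 and 1477 normalized counts at day 1, 538 in replicate 1 and 41.5 in replicate 2, a fall of 1.48 and 5.14 log2 units (SE 0.07, limma adjusted p = 0.00206 and 6.68e-06). The proliferation antigen gene Mki67 fell from 8281 and 8729 to 4702 and 475. Kif11, a spindle motor, fell from 2054 and 2174 to 1047 and 53.3, and Plk1, a mitotic kinase, from 589 and 515 to 261 and 15.4. Ect2, which positions the cleavage furrow, fell from 1205 and 1300 to 707 and 28.4. In each of these 5 genes replicate 1 lay between the day 1 libraries and replicate 2.

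Of the 35 DNA replication and G1/S genes 23 fell and 0 rose in replicate 1 (median -0.51), and all 35 fell in replicate 2 (median -2.93), 34 of them on the mRNA scale (median -2.13). Mcm6, a subunit of the replicative helicase, fell from 3772 and 3928 to 1966 and 123, Cdc45, which activates that helicase, from 370 and 329 to 210 and 8.30, and Uhrf1, which maintains DNA methylation at replication, from 1788 and 1744 to 965 and 60.4. Pcna, the polymerase clamp, did not pass in replicate 1 (4175, 4293 and 4318 in the first 3 libraries) and fell by 2.73 log2 units in replicate 2. Both day 5 libraries lay below both day 1 libraries for 29 of the 35 genes, against 39.4% of all genes.

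Promoters of the mitosis and G1/S lists were read for sequence features that the comparison did not use. These lists were chosen for their known function, so the shares given below describe the lists and not the change between days. Cell cycle promoters are known for a CCAAT box, bound by NF-Y, and for the cell cycle homology region, TTTGAA, bound by the DREAM complex and B-Myb. The sequences shown are the 150 bases before the start of the 4 mitosis genes with the largest mean change, from RefSeq on GRCm38.p6, 5' to 3' in the sense of the gene. Capitals mark CCAAT or TTTGAA on either strand, so that ATTGG and TTCAAA are the same letters read from the opposite strand.
Ccnb1 (chr13:100786487-100786636, minus strand): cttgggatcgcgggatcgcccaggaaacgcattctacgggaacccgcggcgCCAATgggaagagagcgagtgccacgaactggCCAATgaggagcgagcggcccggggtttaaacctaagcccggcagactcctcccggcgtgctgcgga
Ect2 (chr3:27153879-27154028, minus strand): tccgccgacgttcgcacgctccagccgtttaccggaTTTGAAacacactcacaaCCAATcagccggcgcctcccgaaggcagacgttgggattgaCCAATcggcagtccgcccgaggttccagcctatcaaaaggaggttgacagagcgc
Kif11 (chr19:37376232-37376381, plus strand): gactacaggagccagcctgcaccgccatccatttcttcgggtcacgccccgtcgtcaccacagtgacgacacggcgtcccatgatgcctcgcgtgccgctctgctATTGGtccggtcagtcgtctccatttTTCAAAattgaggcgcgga
Plk1 (chr7:122159285-122159434, plus strand): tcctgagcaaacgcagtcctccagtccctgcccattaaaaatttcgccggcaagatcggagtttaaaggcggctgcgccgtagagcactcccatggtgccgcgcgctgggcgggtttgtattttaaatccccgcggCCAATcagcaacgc

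All 4 hold a CCAAT box in these 150 bases, with a pair of them in Ccnb1 and in Ect2, and Ect2 and Kif11 also hold TTTGAA. In the 250 bases before the start, on both strands and with overlaps allowed, CCAAT was found in 20 of the 29 mitosis genes with a promoter in the RefSeq table (69.0%) and in 19 of the 29 G1/S genes (65.5%), against 34.5% of 27025 promoters. TTTGAA was found in 9 of 29 mitosis promoters (31.0%) and 2 of 29 G1/S promoters (6.90%), against 16.3% of all. Both motifs occurred in 8 mitosis promoters (27.6%), against 5.73% of all. These are matches of letters in a fixed window and were not tested as binding sites.

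Interferon response genes set the day 5 libraries apart. In replicate 1, 15 of 33 tested genes rose and 2 fell, with a median of 0.50. In replicate 2, 0 rose and 32 fell, with a median of -2.87, and on the mRNA scale 1 rose and 29 fell, with a median of -2.08. Ifi44 stood at 579 and 628 normalized counts at day 1, 1173 in replicate 1 and 28.4 in replicate 2. It rose by 0.96 log2 units in replicate 1 (SE 0.18, limma adjusted p = 0.0178) and fell by 4.36 in replicate 2 (adjusted p = 1.68e-05). Isg15, a ubiquitin-like modifier, stood at 126, 94.1, 256 and 22.5, and Irf7, which amplifies interferon transcription, at 449, 412, 667 and 107. Both rose in replicate 1 and fell in replicate 2, on the mRNA scale too. Bst2, which tethers virions to the cell surface, was the tested gene that did not fall in replicate 2 on the deposited scale. It rose by 0.59 in replicate 1, did not pass in replicate 2 on the deposited scale (0.04) and rose by 0.85 on the mRNA scale.

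The interferon genes with the largest mean change were led by their loss in replicate 2. Ifit1, which binds foreign RNA, stood at 91.1 and 77.9 at day 1 and 171 in replicate 1, without passing there (limma adjusted p = 0.0558), and was at 0 in replicate 2, at least 23.8-fold lower by a floor of 3 reads in that library. Gbp3, a guanylate-binding protein gene, stood at 16.3, 17.1 and 11.0 and at 0 in replicate 2, at least 4.70-fold lower. Ifit2 stood at 405, 445, 577 and 23.7, and Oas3, which makes the activator of RNase L, at 1687, 1575, 1272 and 88.9. Their promoters are shown as those above, with capitals for the core of the interferon-stimulated response element, GAAA and GAAA with any 2 bases between them, on either strand (TTTC and TTTC when read from the opposite strand).
Ifit1 (chr19:34640739-34640888, plus strand): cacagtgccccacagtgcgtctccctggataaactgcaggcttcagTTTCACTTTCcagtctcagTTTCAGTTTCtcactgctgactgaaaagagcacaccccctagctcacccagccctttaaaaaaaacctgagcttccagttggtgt
Gbp3 (chr3:142559894-142560043, plus strand): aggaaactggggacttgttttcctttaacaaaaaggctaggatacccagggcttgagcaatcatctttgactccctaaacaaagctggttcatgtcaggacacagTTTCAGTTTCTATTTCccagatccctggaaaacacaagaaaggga
Oas3 (chr5:120777660-120777809, minus strand): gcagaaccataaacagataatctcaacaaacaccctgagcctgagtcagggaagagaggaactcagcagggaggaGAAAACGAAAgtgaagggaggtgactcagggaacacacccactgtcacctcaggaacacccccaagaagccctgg
Ifit2 (chr19:34550544-34550693, plus strand): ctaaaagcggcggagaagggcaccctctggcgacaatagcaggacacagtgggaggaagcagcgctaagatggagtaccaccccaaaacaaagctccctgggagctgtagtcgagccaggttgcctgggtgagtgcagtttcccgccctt

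Ifit1 and Gbp3 hold 2 matches each, overlapping in Gbp3, and Oas3 holds 1, while these letters are not in this window of Ifit2. In the 250 bases before the start 12 of 25 interferon genes with a promoter held the motif (48.0%), against 3.04% of all promoters. The motif was looked for in the list as a whole, which was chosen for its known function.

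Inflammatory genes of the Toll-like receptor and NF-kB response moved little as a list in replicate 1, where 3 of 24 tested genes rose and 4 fell (median 0.11). In replicate 2 its median was -0.86, or -0.05 on the mRNA scale, near those of all genes (-0.95 and -0.15). Ptgs2, the inducible cyclooxygenase, fell in both, from 839 and 837 normalized counts to 282 and 42.7, with log2 differences of -1.57 and -4.26 (SE 0.23, limma adjusted p = 0.0100 and 4.05e-05). Acod1, the itaconate-making enzyme, fell from 1781 and 1744 to 766 and 959, by 1.20 and 0.88, but did not pass in replicate 2 on the mRNA scale (-0.07) or after quantile normalization (0.08). Il1rn, the interleukin 1 receptor antagonist, fell from 3582 and 3322 to 1663 and 290. Nfkbia, the NF-kB inhibitor, fell by 0.32 in replicate 1 and rose by 1.23 in replicate 2, from 2761 and 2733 to 2207 and 6422. Tnf rose by 0.41 in replicate 1, and in replicate 2 fell by 0.54 on the deposited scale and rose by 0.27 on the mRNA scale. The monocyte chemokine Ccl2 did not pass in replicate 1 (82.6 against 112 and 111) and fell to 4.74 in replicate 2. Cxcl2 and the acute-phase gene Saa3 did not pass in either library on either scale: Cxcl2 stood at 599, 536, 662 and 563, and Saa3 at 74.8, 73.6, 151 and 87.7.

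Most chaperones and folding enzymes of the endoplasmic reticulum rose in replicate 1 and fell in replicate 2 on the deposited scale. Of 21 genes of the unfolded protein response 20 rose and 0 fell in replicate 1, against 12.6% rising among all genes, with a list median of 1.01. Hspa5, the chaperone BiP, stood at 15242 and 15505 normalized counts at day 1 and 47778 in replicate 1, a rise of 1.64 log2 units (SE 0.06, limma adjusted p = 0.00206), and at 7791 in replicate 2. Hyou1 rose from 3168 and 3069 to 9704 in replicate 1 and fell to 764 in replicate 2. Dnajc3, an inhibitor of the stress kinase PERK, rose from 1132 and 1270 to 3659 and 1433, by 1.61 and 0.26. Calr, a calcium-binding chaperone, rose by 1.23 in replicate 1, and in replicate 2 differed by -0.04 on the deposited scale and rose by 0.77 on the mRNA scale. For the list in replicate 2, 1 rose and 18 fell on the deposited scale, and 5 rose and 9 fell on the mRNA scale, with medians of -0.95 and -0.14 that equal those of all genes to within 0.01. CCAAT was found in 16 of the 18 promoters of these genes in the table (88.9%, against 34.5% of all). CCAAT is also part of the known endoplasmic reticulum stress element, and this list too was chosen for its known function.

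Amino acid and integrated stress response genes went down more often than up: 3 of 29 rose and 12 fell in replicate 1 (median -0.15), and 1 rose and 26 fell in replicate 2 (median -1.73), or 4 and 20 on the mRNA scale (median -0.92). Chac1, a glutathione-degrading enzyme induced by ATF4, fell from 229 and 209 to 75.2 and 71.1. The cystine transporter gene Slc7a11 fell from 2569 and 2604 to 1754 and 517, and Psat1, of serine synthesis, from 3283 and 3141 to 2117 and 366. Ddit3, the stress factor CHOP, was the exception that rose in both, from 362 and 361 to 739 and 785, by 1.03 and 1.12 log2 units (SE 0.11, limma adjusted p = 0.00559 and 0.000414). Trib3, a target of CHOP, rose by 0.93 in replicate 1, and in replicate 2 fell by 0.73 on the deposited scale and did not pass on the mRNA scale (0.07).

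Among metabolic lists, several fell in both libraries. Of the 29 sterol and fatty acid synthesis genes 17 fell and 0 rose in replicate 1 (median -0.66), and 27 fell and 0 rose in replicate 2 (median -1.85), or 23 fell and 3 rose on the mRNA scale (median -1.04). Hmgcs1, which encodes a synthase early in cholesterol synthesis, fell from 2740 and 2773 normalized counts to 1239 and 491, by 1.15 and 2.49 log2 units (SE 0.08, limma adjusted p = 0.00283 and 8.82e-06). Sqle, the squalene epoxidase gene, fell from 1729 and 1745 to 919 and 244. In both genes replicate 2 lay lowest and the day 1 libraries highest. Citrate cycle genes followed, with 14 of 19 falling and 0 rising in replicate 1 (median -0.42), and 18 falling and 1 rising in replicate 2 (median -1.82), or 16 and 1 on the mRNA scale (median -1.02). Idh3a fell from 1751 and 1753 to 1208 and 306, and Fh1 from 1181 and 1153 to 730 and 255. The gene that rose in replicate 2 was Ppargc1b, a coactivator of mitochondrial biogenesis in osteoclasts, at 98.0 and 97.5 at day 1, 108 in replicate 1 and 582 in replicate 2.

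The 41 subunits of oxidative phosphorylation encoded in the nucleus were lower in replicate 1, with a median of -0.38 beside -0.05 over all genes. In replicate 2 their median was -0.59 on the deposited scale and 0.22 on the mRNA scale. Both lay above the medians of all genes, -0.95 and -0.15. Ndufs1, of complex I, fell from 1909 and 1898 to 1317 and 346, and Ndufb3, of the same complex, from 720 and 746 to 395 and 265.5, on both scales. The 26 tested genes of the NRF2 and oxidative stress response were lower in replicate 1 as well (median -0.62). In replicate 2 their medians of -0.98 and, on the mRNA scale, -0.18 lay near those of all genes. Cat, the catalase gene, fell from 5172 and 4985 to 2892 and 943, Gsr, glutathione reductase, from 2277 and 2135 to 1111 and 612, and the malic enzyme gene Me1 from 1085 and 1051 to 572 and 186.

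Glycolysis and hypoxia genes were mixed in replicate 1, where 6 of 30 rose and 10 fell (median -0.15), and fell in replicate 2, where 3 rose and 27 fell (median -1.67), or 3 and 24 on the mRNA scale (median -0.86). Pgk1, a glycolytic kinase, fell from 32957 and 31860 to 19130 and 3882, and Pdk1, which closes pyruvate's entry to the citrate cycle, from 2306 and 2279 to 1780 and 286. Pgf, which encodes placental growth factor, rose in both: it stood at 1.72 and 0 normalized counts at day 1, 77.1 in replicate 1 and 15.4 in replicate 2, a log2 difference of 5.57 and 3.31 (SE 0.68, limma adjusted p = 0.00660 and 0.00670).

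The 39 tested genes of the lysosome and V-ATPase list were higher in replicate 1, with a median of 0.26 beside -0.05 over all genes. In replicate 2 their median was -0.35 on the deposited scale and 0.46 on the mRNA scale. Both lay above the medians of all genes, -0.95 and -0.15. Ctsd and Ctss, lysosomal proteases, rose in both libraries on either scale, from 18929 and 17986 normalized counts to 35651 and 31177, and from 9816 and 10050 to 19485 and 13628. Cytosolic ribosomal protein genes did not rise in replicate 1, where 8 of 37 fell (median -0.09). In replicate 2, 22 rose and 5 fell (median 0.26), and 36 rose and 0 fell on the mRNA scale (median 1.07), with Rps15 at 4505, 4078, 4035 and 14435. Many ribosomal protein genes have processed pseudogenes that can take part of their reads.

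Genes of cholesterol efflux under LXR rose more often than they fell: 3 of 8 against 1 in replicate 1 (median 0.30), and 4 against 2 in replicate 2 (median 0.46), or 6 against 1 on the mRNA scale (median 1.27). Abca1, the cholesterol exporter, rose from 110 and 103 to 280 and 177, and Apoe stood at 13.7, 14.5, 18.4 and 88.9, rising in replicate 2 alone. The 21 tested p53 targets and apoptosis genes had a median of 0.44 in replicate 1, beside -0.05 over all genes. In replicate 2 their median was -0.26 on the deposited scale and 0.55 on the mRNA scale. Both lay above the medians of all genes, -0.95 and -0.15. Cdkn1a, which encodes the cell cycle inhibitor p21, rose from 2102 and 1950 to 3458 and 2403, by 0.77 and 0.25 log2 units (SE 0.07, limma adjusted p = 0.00409 and 0.0236). Gadd45a rose from 61.0 and 73.6 to 256 and 107, and Phlda3, an inhibitor of AKT, from 60.2 and 53.9 to 242 and 181.

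Secreted matrix proteins had 15 of 20 listed genes in the table and 8 of them tested, of which 5 rose and 1 fell in replicate 1 (median 0.62), and 3 rose and 5 fell in replicate 2 (median -1.05), or 3 and 4 on the mRNA scale (median -0.24). Spp1, which encodes osteopontin, stood at 166390 and 166440 normalized counts at day 1, 298080 in replicate 1 and 31066 in replicate 2. It rose by 0.84 log2 units in replicate 1 (SE 0.15, limma adjusted p = 0.0157) and fell by 2.42 in replicate 2, or by 1.61 on the mRNA scale. Mmp12, the macrophage elastase, rose in both, from 862 and 886 to 5875 and 1210, by 2.75 and 0.47. Plau, the urokinase gene, did not pass in replicate 1 (-0.03) and fell by 2.13 in replicate 2. Podosome and actin ring genes, which build the sealing zone, gave 5 rises and 2 falls of 24 in replicate 1 (median 0.13), and 1 rise and 20 falls in replicate 2 (median -1.16), or 4 and 13 on the mRNA scale (median -0.35). Dock5, a Rac activator of that zone, fell from 1438 and 1384 to 807 and 337, and Actr2, of the Arp2/3 complex, did not pass in replicate 1 (-0.07) and fell by 2.14 in replicate 2.

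Mitochondrially encoded RNAs and Malat1, which take large shares of a low-mRNA library, rose in replicate 2. The 15 mitochondrially encoded genes all rose in replicate 2 (median 2.25, and 3.06 on the mRNA scale), and 6 of them fell and 0 rose in replicate 1 (median -0.66). Malat1 stood at 27757 and 35155 normalized counts at day 1, 42680 in replicate 1 and 1035900 in replicate 2, Neat1 at 9130, 8380, 12551 and 26560, and Kcnq1ot1 at 418, 566, 362 and 9060. Of 6 tested nuclear long noncoding RNAs 2 rose and 0 fell in replicate 1 (median 0.21), and 5 rose and 1 fell in replicate 2 on both scales (medians 1.07 and 1.88). Replication-dependent histone genes, whose mRNAs end without a poly(A) tail, gave 1 rise and 6 falls of 14 in replicate 1 (median -0.95), and 3 rises and 4 falls in replicate 2 (median -0.34), or 4 rises and 1 fall on the mRNA scale (median 0.44). Hist1h2ae stood at 61.0, 53.04, 11.0 and 33.2, and Hist2h2aa1 at 30.9, 27.4, 52.3 and 166, and copies of histone genes are so alike that their reads may be split.

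**Figure D3:**
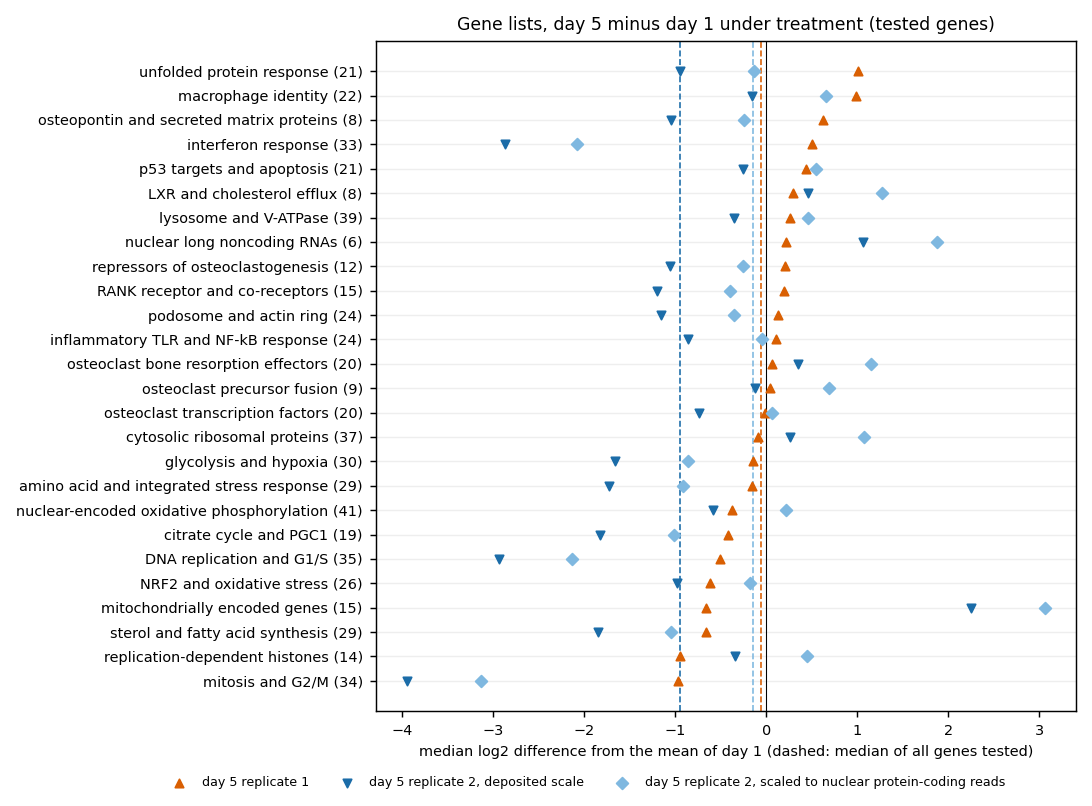
Median log2 difference of each gene list from the mean of day 1 (x axis; tested genes in brackets) in day 5 replicate 1 (orange) and in day 5 replicate 2 on the deposited scale (dark blue) and the mRNA scale (light blue), with the median of all genes tested dashed. The mitosis list is the lowest in each (-0.97, -3.95 and -3.14), and the interferon list lies at 0.50 in replicate 1 and at -2.87 and -2.08 in replicate 2.

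Some genes moved the same way in the libraries of either composition. Both day 5 libraries lay at least 1 log2 unit above both day 1 libraries for 157 genes (1.07%) and at least 1 log2 unit below for 211 (1.43%), and at any distance for 1684 (11.4%) and 5803 (39.4%). Protein-coding genes were 65.61% of the 157 and 74.88% of the 211. These counts come from 4 libraries on the deposited scale, with no test: they were 556 in all without treatment day 1 replicate 1, 597 without treatment day 1 replicate 2, 918 without day 5 replicate 2 and 8236 without day 5 replicate 1, against 368. The genes described next had the largest smaller change of the 2 libraries among those with at least 50 normalized counts in the higher group, 15 in each direction.

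Timp2, an inhibitor of matrix metalloproteinases, led the rises, from 52.4 and 40.2 normalized counts at day 1 to 399 and 798, by 3.09 and 4.09 log2 units (SE 0.22, limma adjusted p = 0.00297 and 4.05e-05). Pou2f2, the transcription factor OCT2, rose from 72.2 and 94.1 to 439 and 1434. Fxyd2, a regulator of the sodium pump, rose from 674 and 648 to 2974 and 5758. All 3 were higher in replicate 2 than in replicate 1. Wfdc17, a small secreted protein of activated macrophages, rose from 41.2 and 52.2 to 317 and 262, the chemokine gene Ccl6 from 31.8 and 30.8 to 103 and 459, and Ms4a7, a macrophage membrane protein, from 27.5 and 18.8 to 79.8 and 108. Slc9a3r2, a scaffold protein, rose from 24.9 and 18.8 to 97.3 and 136, and the ligand gene Wnt6 from 14.6 and 18.8 to 63.3 and 60.4. The noncoding transcripts A330023F24Rik, B230312C02Rik and 3110039I08Rik rose by 3.02, 2.18 and 1.82 in replicate 1 and by 3.98, 3.31 and 1.92 in replicate 2. Mmp9, described above, belongs here too. Fpr2, a formyl peptide receptor, the nonclassical MHC gene H2-M2 and Hp, which encodes haptoglobin, were higher in both libraries but did not pass in replicate 1 (3.31, 1.98 and 1.76, limma adjusted p = 0.0632, 0.0566 and 0.0965), and H2-M2 has close paralogs.

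Among the genes lower in both libraries, Serpinb1a, an inhibitor of neutrophil proteases, fell from 98.8 and 97.5 normalized counts to 2.75 and 3.56, by 4.72 and 4.44 log2 units (SE 0.25, limma adjusted p = 0.00206 and 4.47e-05). Gja1, the gap junction protein connexin 43, fell from 261 and 253 to 14.7 and 4.74. Apod, a lipid-binding apolipoprotein, fell from 85.9 and 65.9 to 2.75 and to 0, in replicate 2 at least 21.4-fold lower by the floor of 3 reads. Serpinb6b, another protease inhibitor, fell from 2849 and 2807 to 469 and 699, and the glutathione transferase gene Gstt1 from 354 and 318 to 70.7 and 78.2. Serpinb1a and Serpinb6b have close paralogs, which makes their counts uncertain. Igf2bp2, which binds mRNAs, fell from 1408 and 1424 to 373 and 191, and the lysophosphatidic acid receptor gene Lpar1 from 77.3 and 89.0 to 22.02 and 22.5. Fat3, an atypical cadherin, fell from 91.9 and 96.7 to 21.1 and 0, in replicate 2 at least 26.5-fold lower. Fndc7 fell from 61.9 and 59.0 to 7.34 and 14.2, and Olfml3, a secreted protein, from 67.9 and 64.2 to 7.34 and 16.6. The neighbouring genes Dmpk and Dmwd fell together, from 142 and 132 to 34.0 and 13.0 and from 131 and 114 to 30.3 and 9.48, and reads from 1 can count for the other where they overlap. The long noncoding RNA 1110002J07Rik fell by 1.88 and 2.93. Jdp2 and Myc, named among the transcription factors, complete the 15, and each of the 15 fell on the mRNA scale too.

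**Figure D4:**
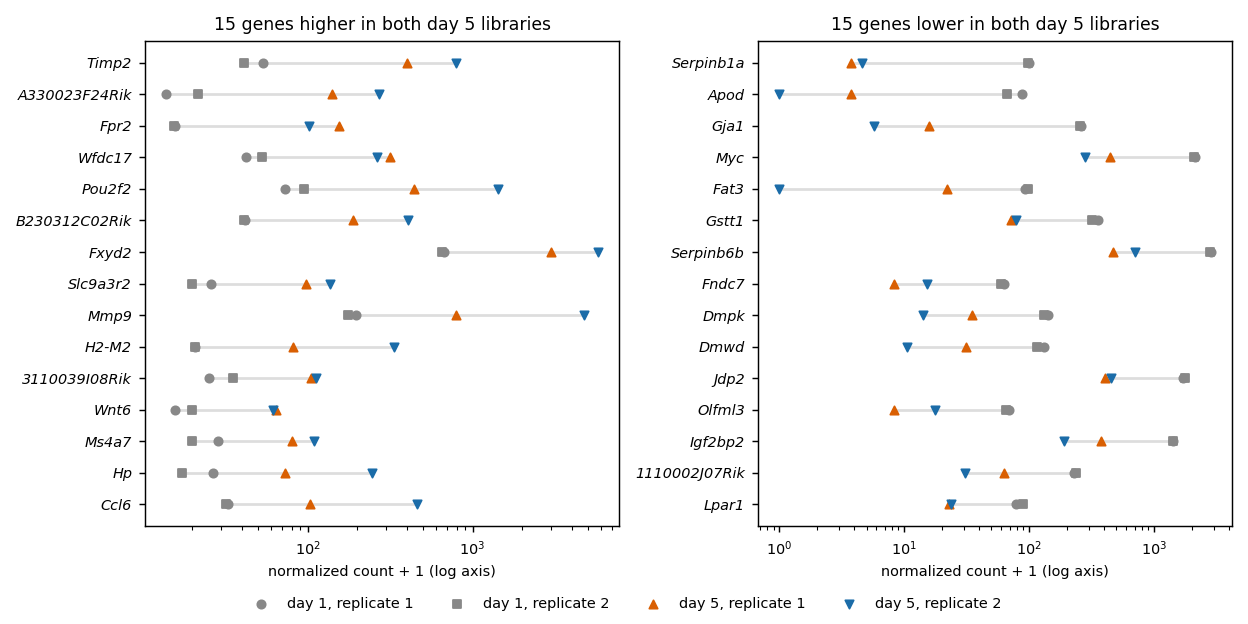
Normalized count plus 1 (x axis, log scale) of the 15 genes that were most higher (left) and the 15 that were most lower (right) in both day 5 libraries, in the 2 libraries of day 1 (grey) and in day 5 replicate 1 (orange) and replicate 2 (blue). Timp2 stands at 399 and 798 against 52.4 and 40.2, and Serpinb1a at 2.75 and 3.56 against 98.8 and 97.5.

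The genes that differed most between the day 5 libraries with opposite signs of change were taken, 6 in each direction. On the side of replicate 1, Ifi44l rose from 27.5 and 27.4 normalized counts to 76.2 and was at 0 in replicate 2, at least 7.72-fold lower. Ifi209, an interferon-inducible DNA sensor family member, stood at 48.1, 54.8, 106 and 0, and did not pass in replicate 1. Ifit1, described above, was also among them. Lrrc8b, a volume-regulated anion channel subunit, stood at 204, 192, 221 and 1.19. The antisense transcript Gm15350 stood at 72.2, 66.7, 115 and 0. Ambp, a secreted protease inhibitor precursor, rose from 6.02 and 4.28 to 103 in replicate 1 and was at 0 in replicate 2. On the side of replicate 2, 5330406M23Rik stood at 2.58, 4.28, 0.92 and 382, C130089K02Rik at 4.30, 3.42, 0.92 and 288, 9430025C20Rik at 4.30, 5.99, 0.92 and 258, and Gm37033 at 4.30, 4.28, 0.92 and 247. Gm24920, a small nucleolar RNA, stood at 5.16, 3.42, 0 and 149, and Gm37718 at 5.16, 5.13, 0 and 152. Apart from 1 pseudogene and the small nucleolar RNA, the annotation classes these as transcripts still to be experimentally checked.

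The change from day 1 to day 5 was then compared between arms, with the vehicle libraries of the same replicate number. Across 14715 genes the change under supernatant and the change under vehicle had a Pearson correlation of 0.62 in replicate 1 (Spearman 0.62) and of 0.92 in replicate 2 (Spearman 0.91). These describe genes, which are not independent, and in replicate 2 both arms share the low-mRNA composition. Over all 12 libraries the limma interaction called 0 genes (0.0%, 5 at an unadjusted p under 0.05 and 0 by limma-voom). With the replicate 1 libraries it called 17 (0.116%), 9 with a higher and 8 with a lower change under supernatant, and with the replicate 2 libraries 4117 (28.0%). Of those 4117, 3671 were higher and 446 lower, and the median of all genes was 0.26. A separate fit of all genes on the mRNA scale called 2304, of which 1477 were higher and 827 lower, with a median of 0.01. On the deposited scale the counts of both replicates were 0 without any 1 of the 4 day 1 libraries (treatment or vehicle). The mRNA scale was not refitted in this way. The spread of this fit comes from the day 1 libraries alone, so leaving 1 out also took away residual degrees of freedom. The effect of that loss was not separated from that of the library. For replicate 1 limma-voom called 645.

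The 17 genes of replicate 1 held hypoxia-linked genes on the higher side. Bnip3, a mitophagy receptor, fell under both, from 3562 and 3659 normalized counts to 2213 under supernatant and from 4989 and 5039 to 1035 under vehicle. Its interaction was 1.57 log2 units (SE 0.08, limma adjusted p = 0.0316). Adm, which encodes the vasodilator peptide adrenomedullin, rose from 34.4 and 37.6 to 114 under supernatant and fell from 105 and 91.6 to 4.60 under vehicle, an interaction of 5.78. Ak4, a mitochondrial adenylate kinase, and Ero1l, which oxidizes protein disulfide isomerase, had interactions of 1.55 and 1.14. Bnip3, Adm, Ak4 and Ero1l also passed with the replicate 2 libraries (2.38, 3.29, 2.87 and 1.60), on the mRNA scale too. The interactions of both replicates use the same day 1 libraries of each arm, so they are not independent of each other. Mycn, a MYC family factor, rose from 484 and 487 to 1193 under supernatant and fell from 1032 and 974 to 637 under vehicle. Kbtbd11, Gfod1 and Zfhx4 rose under supernatant and fell under vehicle, with interactions of 1.94, 1.76 and 1.14. The pseudogene Gapdh-ps15 (0.97) may share reads with its parent gene.

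On the lower side, Ocstamp fell to 3.67 under supernatant and from 186 and 219 to 54.3 under vehicle, an interaction of -2.88 log2 units (SE 0.19, limma adjusted p = 0.0343). Myc fell to 443 under supernatant and from 1907 and 1983 to 929 under vehicle (-1.18). Aif1, the macrophage protein IBA1, did not pass under supernatant, at 165 and 166 at day 1 and 141 in replicate 1, and rose from 76.5 and 79.0 to 345 under vehicle (-2.36). Tnfrsf1b, a TNF receptor, Ptafr, the receptor of platelet-activating factor, and Pltp, a phospholipid transfer protein, likewise rose under vehicle only, with interactions of -1.56, -1.34 and -1.17. Tgm2, a transglutaminase, fell under supernatant and rose under vehicle (-1.62), and Rgl1, a Ral activator, fell under supernatant and did not pass under vehicle (-1.39). The arms began from different levels in 16 of the 17, with day 1 libraries that did not overlap. Under supernatant these lay above vehicle for Aif1, Tnfrsf1b, Ptafr, Tgm2, Rgl1 and Myc. They lay below it for Adm, Mycn, Kbtbd11, Bnip3, Ak4, Gfod1, Ocstamp, Zfhx4, Pltp and Gapdh-ps15, and overlapped for Ero1l. Some of the 17 had an interaction of opposite sign with the replicate 2 libraries on the deposited scale. It was positive there for Myc (0.81), Tnfrsf1b (0.53), Rgl1 (0.32) and Ocstamp (0.05), and negative for Zfhx4 (-0.77) and Kbtbd11 (-0.15). The median of all genes on that scale was 0.26, and Ocstamp and Kbtbd11 did not pass. On the mRNA scale the values were 0.56, 0.28, 0.07, -0.21, -1.02 and -0.41 in the same order. Ocstamp there had the sign of replicate 1, and of these genes only Myc and Zfhx4 passed on both scales.

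**Figure D5:**
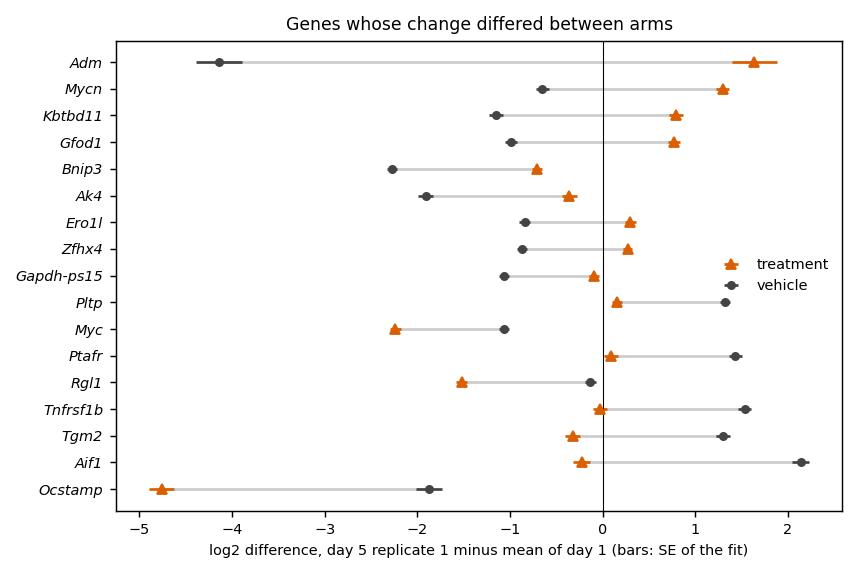
Log2 difference of day 5 replicate 1 from the mean of day 1 (x axis) under supernatant (triangles) and vehicle (circles) for the 17 genes whose change differed between arms, with the SE of the fit as bars. Adm lies at 1.63 and -4.14, and Ocstamp at -4.76 and -1.88.

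Interaction calls of the lists in replicate 2 are read beside those of all genes, of which 24.9% were higher and 3.03% lower on the deposited scale, and 10.0% and 5.62% on the mRNA scale. The calls on the deposited scale were lost without any 1 of the 4 day 1 libraries. Values of replicate 1 given beside them rest on the same day 1 libraries and are not independent of those of replicate 2. In glycolysis and hypoxia 25 of 30 genes had a higher change under supernatant and 0 a lower, or 22 and 0 on the mRNA scale, with median interactions of 1.06 and 0.81 beside 0.26 and 0.01 over all genes. In replicate 1 that list's median was 0.81 beside -0.06, with 2 of 30 passing. Of 29 amino acid and integrated stress response genes 16 were higher and 0 lower in replicate 2, or 12 and 0 on the mRNA scale, with medians of 0.71 in replicate 2 and 0.15 in replicate 1. In the unfolded protein response 14 of 21 were higher and 0 lower in replicate 2, or 6 and 0 on the mRNA scale, where Hyou1 and Dnajc3 did not pass. The medians were 0.54 in replicate 2 (0.28 on the mRNA scale) and 0.38 in replicate 1. The 14 tested histone genes went the other way, with median interactions of -1.54 in replicate 2 (-1.71 on the mRNA scale) and -1.08 in replicate 1. Of these histone genes 5 were lower and 0 higher in replicate 2 on either scale, and 0 passed in replicate 1. Of the 20 effector genes 5 were higher and 5 lower in replicate 2 (2 and 7 on the mRNA scale) and 0 passed in replicate 1. Of the 34 mitosis genes 3 were higher and 14 lower in replicate 2 (2 and 18 on the mRNA scale) and 0 passed in replicate 1. The complement gene C3 and the fractalkine receptor gene Cx3cr1 were among the smallest p-values in replicate 2. There C3 stood at 566 at day 5 under supernatant and 72.1 under vehicle, and Cx3cr1 at 4055 and 1834. Their interactions were 2.03 and 1.64 in replicate 2. In replicate 1 the interaction was -0.77 for C3, of the opposite sign, and 0.31 for Cx3cr1, and neither passed.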

How the data were processed

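RNA from RAW264.7 cells was sequenced from TruSeq libraries of total RNA. The submitters' processing notes name TopHat2, SAMtools, DESeq2 and build mm9. Their versions, the annotation and the strand setting were not given in the sources used here, nor was the counting step. Per the file headers, the authors deposited log2 values by gene and library, whose form was worked out from the values as log2(normalized count + 8). After that offset was removed, 100% of values were whole multiples of 1 read within 0.02 reads, so reads were recovered. Of 24757 rows, 993 repeats of 23764 Ensembl identifiers with equal values were dropped, and 23354 identifiers were named from a reference table of a later build and 84 from the file. Coordinates are given for promoters alone, from RefSeq on GRCm38.p6, with the first listed promoter of a symbol.

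A gene was kept where any of the 6 groups had a mean normalized count of 10 or more. limma 3.58.1 (R 4.3.3, trended prior) was fitted to log2(normalized count + 1), which understates changes of low genes, with Benjamini-Hochberg adjustment over all genes kept. The fit with 1 mean per group had 6 residual degrees of freedom. The fit with a mean per day 1 group and a coefficient for each library of days 3 and 5 had 2, and gave each day 5 library against day 1 and the interactions with vehicle. A count test was not used as the deposited unit is log2, and limma-voom on recovered reads served as an alternative. Promoters were searched over 250 bases before the start, a window set after a first search of a longer one. The members, the 31 gene lists and the tests were chosen with earlier results of these data known, and lists got no test of their own. Named genes were the 15 largest rises and falls in both day 5 libraries, the 6 largest differences between them in each direction, up to 4 genes per list, the smallest interaction p-values and 25 genes named in every case, of which Calcr is not described, some named genes are not reported here, and Fpr2, H2-M2 and Hp are shown without passing. A few genes outside the rule, such as the markers at 0, were named after their values were seen. Alternatives were normalization, filter, pseudocount, libraries left out, a replicate block and limma-voom. Each library held 8071160 to 16781080 reads, and replicates of day 1 under supernatant differed by a chi-square per degree of freedom of 4.93, against 495 at day 5. Floors of 3 reads cover counting error alone. In simulated counts for 13879 genes, of which 100 were changed by 1 log2 unit and 100 by 2, the fit recovered 93 and 100 in replicate 1 with 23 false calls, and 91 and 100 in replicate 2 with 56. All simulated libraries had the day 1 spread, an assumption the simulation therefore leaves untested. For these numbers they also had the composition of treatment day 1, replicate 2 included. Recovery by this fit in a low-mRNA library was therefore not simulated. Tables and figures were made with pandas 2.3.3, numpy 2.4.6 and matplotlib 3.10.9 under Python 3.11.15.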

Additional observations from a re-analysis of the deposited data

Results flagged for a closer look

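The change from day 1 to day 5 differed between arms, by the limma interaction test, for 17 genes in the replicate 1 libraries, all described in the report. The log2 difference of the changes, supernatant minus vehicle, was positive for Adm (5.78), Mycn (1.95), Kbtbd11 (1.94), Gfod1 (1.76), Bnip3 (1.57), Ak4 (1.55), Ero1l (1.14), Zfhx4 (1.14) and Gapdh-ps15 (0.97). It was negative for Ocstamp (-2.88), Aif1 (-2.36), Tgm2 (-1.62), Tnfrsf1b (-1.56), Rgl1 (-1.39), Ptafr (-1.34), Myc (-1.18) and Pltp (-1.17). Leaving out any 1 of the 4 day 1 libraries took each of these below the threshold. With the replicate 2 libraries on the deposited scale the sign was the opposite for Myc, Tnfrsf1b, Rgl1, Ocstamp, Zfhx4 and Kbtbd11. Of these, Ocstamp and Kbtbd11 did not pass there. On the mRNA scale only Myc and Zfhx4 of them passed, and Ocstamp had the sign of replicate 1. No cause was tested.

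In the replicate 2 libraries, where 28.0% of all genes passed and the median of all genes was 0.26, the change also differed between arms for genes named in the report. Those with a higher change under supernatant on the deposited and on the mRNA scale were led by Hp (5.66), Adm (3.29), Lpar1 (3.02), Ak4 (2.87), Ptgs2 (2.77), Mmp12 (2.60), Bnip3 (2.38), C3 (2.03), Acod1 (1.85), Cx3cr1 (1.64) and Pgk1 (1.64). Smaller differences of this kind were seen for Ero1l (1.60), Trib3 (1.54), Ccl6 (1.43), 1110002J07Rik (1.23), Cd14 (1.18), Pdk1 (1.11), Cd36 (1.09), Pcna (1.07), Adgre1 (1.01), Nfkbia (0.99) and Psat1 (0.97). Below these lay Cdkn1a (0.96), Itgam (0.96), Tnf (0.93), Cat (0.85), Myc (0.81), Mycn (0.79), Gapdh-ps15 (0.76), Fos (0.76) and Hspa5 (0.72). A higher change on the deposited scale alone was called for Bcl6 (0.71), Csf1r (0.58), Hyou1 (0.58), Actr2 (0.54), Dnajc3 (0.54), Tnfrsf1b (0.53), Mmp9 (0.53), Gsr (0.50) and Mcm6 (0.50). The same held for Me1 (0.47), Gfod1 (0.44), Ctss (0.42), Dock5 (0.41), Ndufs1 (0.36), Idh3a (0.36), Fh1 (0.35) and Rgl1 (0.32). A lower change under supernatant on both scales was called for Ifit1 (-4.05), 5330406M23Rik (-2.36), Ambp (-2.08), Apod (-1.96), Serpinb1a (-1.84), Hist1h2ae (-1.73), Ifi44 (-1.34), Lrrc8b (-1.20), Mki67 (-1.01) and Il1rn (-0.84). It was also called for Src (-0.77), Zfhx4 (-0.77), Ctsk (-0.72), Kif11 (-0.69), Atp6v0d2 (-0.64), Uhrf1 (-0.62), Tgm2 (-0.57), Tcirg1 (-0.55) and Ect2 (-0.50). Genes at 0 in a low-mRNA library, such as Ifit1 and Apod under supernatant, rest on few reads. With the replicate 1 libraries the interaction had the opposite sign for some genes called on both scales. Of those higher, it was negative for Myc (-1.18), Ccl6 (-0.96), C3 (-0.77), Adgre1 (-0.77), Lpar1 (-0.67), Nfkbia (-0.51) and Cd36 (-0.50). It was also negative for Fos (-0.45), Acod1 (-0.40), 1110002J07Rik (-0.39), Trib3 (-0.31) and Hp (-0.15), and positive for the others. Of those lower on both scales, the replicate 1 interaction was positive for Ambp (3.08), Zfhx4 (1.14), Ifi44 (1.11) and Lrrc8b (0.16), and negative for the others. Among these genes of opposite sign only Myc and Zfhx4 passed in replicate 1. On the deposited scale no gene passed without any 1 of the 4 day 1 libraries, and the mRNA scale was not refitted in this way.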

How the results depend on the processing

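The counts of each comparison moved with several choices. For day 5 replicate 1 (4464 genes) the count was 2662 with no filter on low values and 2235 with the 4 libraries alone, and 668 to 4489 with each library left out. For replicate 2 (11967) it stayed within 1.5 times, at 11153 to 11978 with a library left out. The interaction of replicate 1 (17) gave 11 with quantile normalization, 1133 with no filter, 78 with a pseudocount of 5, 90 with the deposited offset of 8, 645 with limma-voom, and 0 to 27 with a library left out. That of replicate 2 (4117) gave 2132 with quantile normalization, 2304 on the mRNA scale, 2312 with limma-voom, and 0 to 4080 with a library left out. The 368 genes beyond both day 1 libraries became 632 with no filter, 235 with a pseudocount of 5, 188 with the offset of 8, 1784, 48 and 7487 at a distance of 0.5, of 2 and of any size, and 556 to 8236 with a treated library left out. The 12-library fit called 0 under each alternative but without the 4 low-mRNA libraries (4560 genes, and 75 for the interaction) and with a term by day for them (610). With the replicate number as a replicate block it also called 0, and 0 for the interaction. The deviations of same-numbered libraries correlated at 0.062 between days 1 and 5 under supernatant and at 0.78 to 0.90 among groups of days 3 and 5. Deviations at days 3 and 5 hold the low-mRNA composition of replicate 2. The value of 0.062 therefore cannot show whether the numbers pair the samples of the days compared.

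The sign in day 5 replicate 2 turned on the mRNA scale for C3 (0.61), Calr (0.77), Cd74 (0.45), Csf1r (0.32), Cx3cr1 (0.75), Cxcl2 (0.80), Gfod1 (0.36), Hist1h2ae (0.0312), Id2 (0.0896), Itgam (0.80), Mpeg1 (0.31), Ptafr (0.68), Siglec1 (0.13), Tnf (0.27), Trib3 (0.0745) and Zfhx4 (0.0843). With quantile normalization it turned for Acod1 (0.0799), Bcl6 (0.16), C3 (0.86), Calr (0.30), Cd74 (0.38), Cx3cr1 (0.53), Cxcl2 (1.05), Gapdh-ps15 (0.0296), Gfod1 (0.63), Id2 (0.21), Itgam (0.51), Ptafr (0.91), Siglec1 (0.31), Tnf (0.53), Trib3 (0.32) and Zfhx4 (0.30). In replicate 1 Pcna turned on the mRNA scale (-0.0055) and Plau with quantile normalization (0.039), and neither passed. The causes were not tested. What limits all of these results is that 1 library stands for each composition of day 5, and that low counts in the low-mRNA library, with fewer mRNA reads, are less exact.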
